A study of Mus musculus with 8 samples.

Results

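Of 16399 RBM45 iCLIP peaks that both wild-type (WT) replicates share, 941 (5.74%) were narrow peaks inside the later introns of very long mouse genes. A peak was counted where it was at most 100 bp wide and its midpoint lay inside a protein-coding gene of over 500 kb on the same strand. The midpoint also had to lie outside every exon of the basic annotation, over 100 nt from any splice site, and outside intron 1 of the transcript with the longest coding sequence. The annotation was GENCODE M21 on GRCm38 (mm10). The same rule gave 4571 peaks in genes of 100 to 500 kb, which serve as the comparison, and 290 shared peaks lay in intron 1 of the genes over 500 kb. Of all shared peaks 15813 were at most 100 bp wide.

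The cells were mHiPPoE-2, a transformed mouse hippocampal neuronal line of strain Crl:CFW(SW)-024, transduced with lentivirus to express mouse RBM45 with FLAG and HA tags. RNA bound to the tagged protein was recovered by iCLIP, in which UV light crosslinks protein to RNA, with an HA-tag antibody. The series holds 8 libraries in 4 groups of 2, namely Mettl3 KO CLIP, Mettl3 KO input, WT CLIP and WT input, the inputs being size-matched, and all carried the tagged RBM45. Peaks called in WT CLIP replicate 1, in WT CLIP replicate 2 and shared by the pair are the data used. All libraries come from 1 cell line with tagged RBM45 supplied by lentivirus, nothing says whether replicates were separate cultures, and RNA levels that could check the labelled cell type were not used here.

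RBM45 binds RNA through RNA recognition motifs and is mainly nuclear, where unspliced transcripts are found. Genes of this length are common among neuronal adhesion, synaptic and signalling genes, and nearly all of their length is intron. RNA polymerase needs many hours to cross such a gene, so that long introns exist as nascent RNA for long periods, and several of these genes span common fragile sites.

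Sequence could be read for 19 of the 941 peaks, where an annotated transcript or a promoter window of RefSeq (GRCm38.p6) covered the 30 bases around the midpoint, and for 126 of the peaks in genes of 100 to 500 kb. The 7 below were picked, after their values were seen, from the 12 of highest −log10 p, and are shown to give the letters under peaks of both replicates, on the strand of the host gene, 5′ to 3′, with U written as T. Capitals mark GAC, the core letters of the m6A consensus, and runs of at least 4 T.

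Celf2 chr2:7078665-7078694, minus strand: ccgaaGACtGACttatttctaaGACtaaaa

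Celf2 chr2:7078771-7078800, minus strand: accatctcactGACctttGACcctccTTTT

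Cdh13 chr8:118855935-118855964, plus strand: gagagggtctGACcGACtgtgggatcaatg

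Ank2 chr3:126950363-126950392, minus strand: ttgaagtactGACatGACagtattacTTTT

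Iqschfp chr3:68596464-68596493, plus strand: tcactggtgattgctgttatggcccaatgc

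Tenm1 chrX:43254145-43254174, minus strand: aagctcctattccaactcctacttccaaaa

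Tenm2 chr11:36722893-36722922, minus strand: gtattgttccaatttagtatatgtgctgcc

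In this small set GAC stood in 6 of 19 windows (31.6%; Wilson 95% interval 15.4 to 54.0) in genes over 500 kb and in 44 of 126 (34.9%; 27.2 to 43.6) in genes of 100 to 500 kb. The whole m6A consensus, known as DRACH (a base other than C, then A or G, then AC, then a base other than G), stood in 7 of 19 (36.8%; 19.1 to 59.0) and in 62 of 126 (49.2%; 40.6 to 57.8). A run of TTTT stood in 4 of 19 (21.1%; 8.51 to 43.3) and in 23 of 126 (18.3%; 12.5 to 25.9). Motifs were searched on the strand of the gene only, and GAC can lie within the consensus. The windows are those that a transcript or promoter happens to cover, so they are no sample of all 941 peaks. The Tenm1 and Tenm2 windows, in genes for teneurin adhesion receptors, lie over annotated snRNA genes of the opposite strand (Gm24763 and Gm22127), and the letters printed are antisense to those. In all 35 of the 941 peaks (3.72%) lay opposite another annotated gene, among them 21 opposite antisense genes, 6 opposite lincRNA genes and 4 opposite snRNA genes, against 188 of 4571 in genes of 100 to 500 kb. The sources used here do not say how peaks got their strand.

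Peaks were sparser in the longest genes. Later introns of genes over 500 kb carried 6.13 shared peaks per Mb (exact Poisson 95% interval 5.75 to 6.54, over 153.4 Mb of intron that met the rule), and those of genes of 100 to 500 kb carried 14.5 per Mb (14.1 to 14.9, over 315.6 Mb). The ratio was 0.424 in a quasi-Poisson regression over genes (n = 2439, 95% interval 0.366 to 0.491, p = 1.3e-29), and its interval was 0.340 to 0.528 with sandwich standard errors over genes (p = 3.4e-14). Each replicate alone gave a difference in the same direction. Replicate 1 had 168.6 peaks per Mb in genes over 500 kb and 366.0 in genes of 100 to 500 kb, a ratio of 0.461 (0.415 to 0.511, p = 2.2e-46, n = 2439 genes). Replicate 2 had 169.3 and 338.0 peaks per Mb, a ratio of 0.501 (0.453 to 0.554, p = 1.6e-40, n = 2439 genes). Depth per library is unknown, and the Poisson intervals cover counting error only. RNA levels were not used, so fewer peaks per Mb and less RNA of a gene cannot be told apart.

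**Figure D1:**
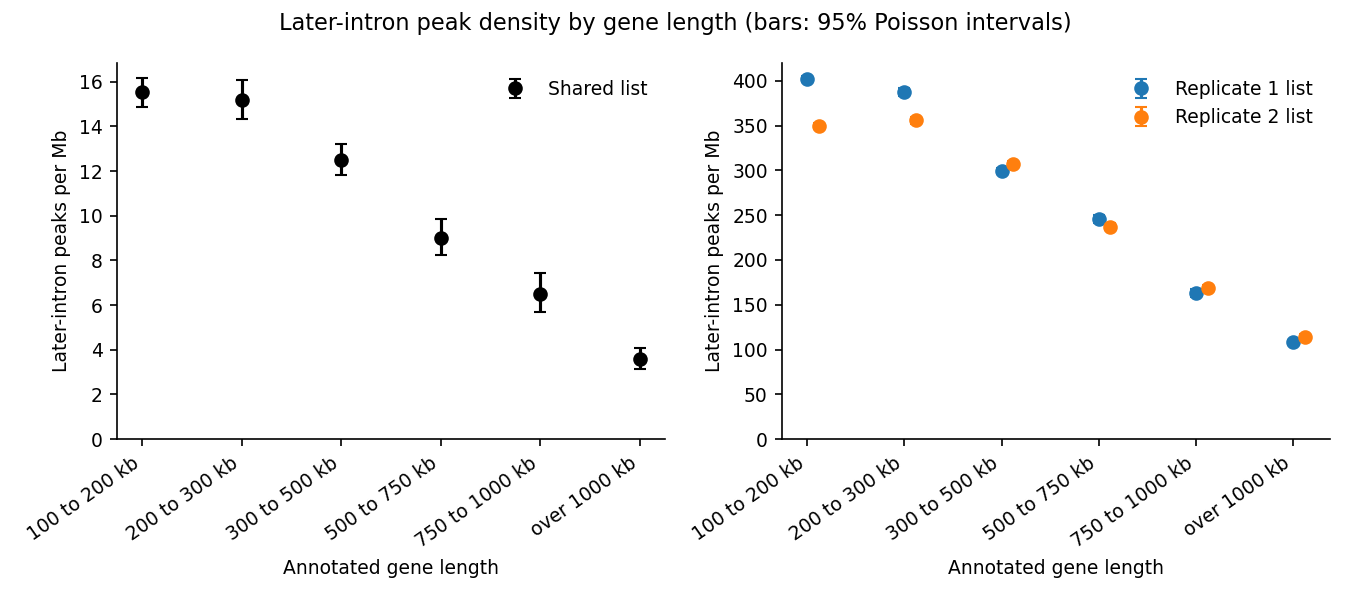
Later-intron peaks per Mb of intron that met the rule (vertical axes) in 6 classes of annotated gene length (horizontal axes), for the shared list (left) and each replicate list (right), with exact Poisson 95% intervals as bars. Shared density is 15.5 and 15.2 per Mb in the shortest classes and 3.58 per Mb above 1000 kb.

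The plot of density by gene length shows that the pooled density also fell within both classes. From the shortest to the longest, genes of 100 to 200 kb had 15.5 shared peaks per Mb, 200 to 300 kb had 15.2, 300 to 500 kb had 12.5, 500 to 750 kb had 9.02, 750 to 1000 kb had 6.52 and genes over 1000 kb had 3.58. The intervals of the first pair overlap, and those of each later neighbouring pair do not. These intervals cover counting error only, not spread between genes. In the same order the median gene had 6.80, 7.21, 4.48, 2.42, 2.01 and 1.44 shared peaks per Mb. Replicate 1 fell to 108.7 peaks per Mb in genes over 1000 kb, and replicate 2 to 114.4. At the 500 kb limit itself neighbouring genes differed widely. Just inside it, Dock1 (503.0 kb) had 26 shared peaks and Edil3 (501.8 kb) had 0, and just outside it Prkce (490.1 kb) had 10 and Pde1c (499.3 kb) had 0. Few peaks stood near the width limit, with 2 in the 10 bp inside it and 2 in the 10 bp outside it.

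A peak of replicate 2 was also less often shared. Of replicate 2 peaks in later introns, 3.62% (3.40 to 3.86) were shared in genes over 500 kb and 4.29% (4.17 to 4.41) in genes of 100 to 500 kb, an odds ratio of 0.840 (0.769 to 0.917, p = 9.7e-05, quasi-binomial regression over 2343 genes). With only peaks of a −log10 p of at least 5, the odds ratio was 0.775 and did not pass the threshold (p = 0.11, quasi-binomial regression over genes). The lower density of replicate 1 peaks in these genes moves with this share, and its part in it was not tested.

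At least 1 of the 941 peaks stood in 151 of the 230 genes over 500 kb (65.7%), while 54.1% of genes of 100 to 500 kb held a later-intron shared peak. The longer genes offer more intron per gene, so that this share and the density run in opposite directions. The peaks were concentrated in few genes. No peak stood in 79 genes, 1 in each of 48, and 2 to 4 in each of 46, while 24 genes with 10 to 19 peaks held 37.4% of the total and 10 genes with 20 or more held 258 (27.4%). The median gene over 500 kb had 1.98 peaks per Mb, against 6.16 for genes of 100 to 500 kb. Although pooled density fell with length above 500 kb, length ordered the density of single genes only weakly (Spearman correlation −0.09 across genes). This covers the 226 genes over 500 kb with intron that met the rule. Their densities in both replicate lists ran together (Spearman correlation 0.88 across genes, which are no replicates). Genes with at least 1 shared peak had 214.7 replicate 1 and 213.0 replicate 2 peaks per Mb, and genes with none had 45.4 and 52.3. A shared peak needs a peak in each library, so the direction of this difference is built in.

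**Figure D2:**
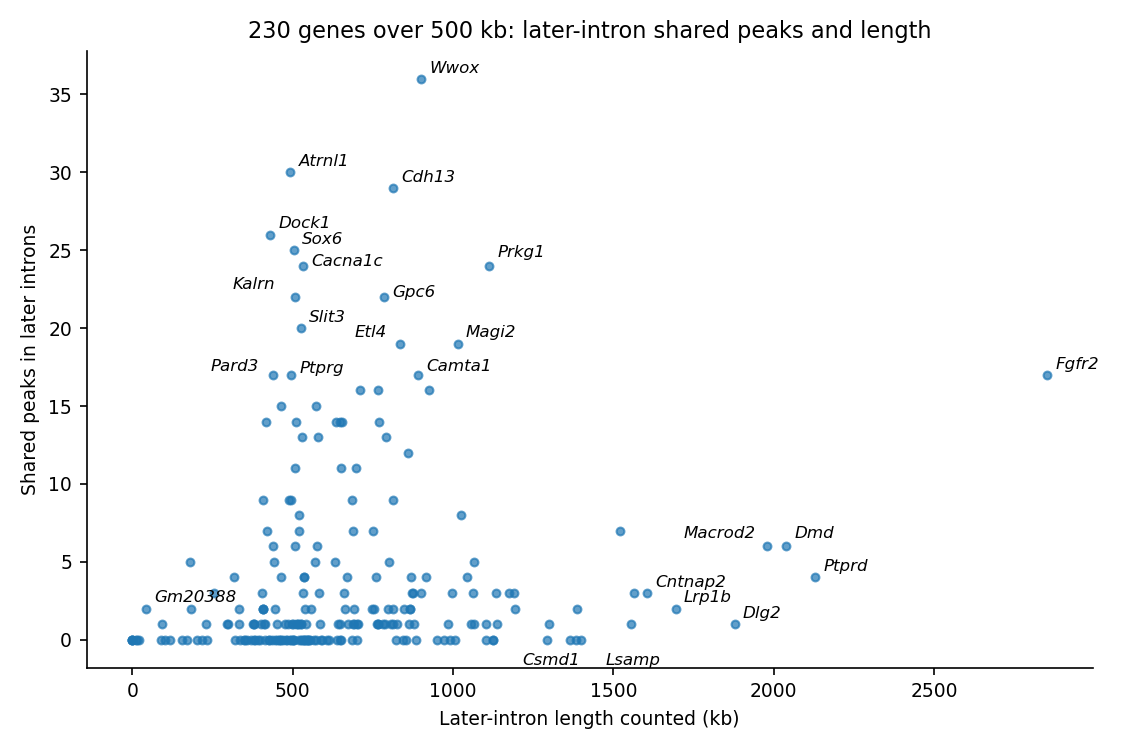
Each point is 1 of the 230 genes over 500 kb, with its later-intron length that met the rule in kb (horizontal axis) and its number of later-intron shared peaks (vertical axis). The 16 genes with most peaks and the 10 longest genes are labelled. Wwox is highest with 36 peaks, Fgfr2 is farthest right with 17, and Dlg2, also far right, has 1.

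Wwox, an oxidoreductase with WW domains that spans a common fragile site, held the most peaks. It lies at chr8:114439655-115352708 and had 36 shared peaks, 692 replicate 1 peaks and 938 replicate 2 peaks in later introns, or 39.9 shared peaks per Mb. Intron 8, at 639.4 kb, held 22 of the 36. Intron 5 held 11 at a higher density (57.7 against 34.5 per Mb), a difference that was not tested. The strongest of the 36 had a lower-of-replicates fold of 3.64, so the gene stood out by number and not by peak height.

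Atrnl1, which encodes an attractin-like membrane protein, and Dock1, an activator of the Rac GTPase, had the highest densities. Atrnl1 (chr19:57611034-58133343) had 30 shared peaks, 378 replicate 1 and 463 replicate 2 peaks, at 60.9 shared peaks per Mb (41.1 to 86.9). Introns 26, 27 and 28 of Atrnl1, which has 28 introns, held 13, 3 and 9 of the 30. These introns are 138.1, 106.6 and 88.7 kb long in a gene of 522.3 kb. They made up 28.0%, 21.6% and 17.9% of the Atrnl1 intron that met the rule. Dock1 (chr7:134670654-135173639) had 26 shared, 475 replicate 1 and 422 replicate 2 peaks, at 60.6 per Mb, spread over 11 introns with at most 5 in any one. The intervals of both genes overlap each other and lie above the class densities of 6.13 and 14.5 per Mb. Both genes were picked as the densest, so this position follows from the choice and is no test. The intervals cover counting error only.

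Cdh13, a cadherin anchored to the membrane by a lipid, was next to Atrnl1 in number, with 29 shared peaks at 35.7 per Mb, from 555 replicate 1 and 650 replicate 2 peaks. Its peaks were spread over 6 introns, with 8 in intron 5. Ctnnd2 had 9, the adhesion-linked alpha-T-catenin gene Ctnna3 had 7, and 3 of the 10 cadherin, protocadherin and catenin genes had none. That list as a whole had 52 peaks in 7 of 10 genes, or 5.65 per Mb, close to the 6.13 per Mb of all genes over 500 kb.

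Regulators of the cytoskeleton and of small GTPases had 104 peaks in 13 of 15 genes, at 10.6 per Mb (8.66 to 12.8). Kalrn, a guanine nucleotide exchange factor of dendritic spines, had 22 shared, 339 replicate 1 and 353 replicate 2 peaks, at 43.4 per Mb, with 21 of the 22 shared peaks over 14 numbered introns. Etl4 had 19 shared peaks out of only 160 in replicate 1 and 182 in replicate 2. The share of its replicate 2 peaks that were shared, 10.4%, was above the 3.62% of the class. In Etl4, intron 3 held 10 of the 19 and made up 15.7% of the intron that met the rule. Dmd, the gene for dystrophin, had 6 peaks in 2257 kb.

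Transcription and chromatin regulators had 101 peaks in 11 of 15 genes, at 11.8 per Mb (9.63 to 14.4). Sox6, a SOX factor of developing neurons, cartilage and muscle, had 25 shared, 426 replicate 1 and 318 replicate 2 peaks, at 49.6 per Mb, over 9 introns with 7 in intron 7. Camta1, a calmodulin-binding transcription activator, had 17 peaks, Npas3 had 16 and Zbtb20 had 14. Sox5, Esrrg, Mecom and Zfp804b had 0.

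The list of intracellular signalling genes had 72 peaks in 7 of 9 genes, at 11.9 per Mb (9.28 to 14.9). It also holds genes that encode no enzyme, namely Lpp, a LIM domain protein of focal adhesions, with 13 peaks, and the adaptor Dab1 and the calcium-binding Mctp1 with 0. Prkg1, the cGMP-dependent protein kinase, had 24 shared, 523 replicate 1 and 595 replicate 2 peaks. Introns 2 and 3 held 10 of the shared peaks each, and made up 25.5% and 27.8% of the Prkg1 intron that met the rule. Plcb1, a phospholipase C, and Mast4, a serine/threonine kinase, had 14 each.

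Synaptic scaffolds and polarity proteins had 77 peaks in 11 of 14 genes, at 7.68 per Mb (6.06 to 9.60). Magi2, a scaffold with PDZ domains at the synapse, had 19 peaks, 15 of them in intron 2, which made up 38.1% of its intron that met the rule. Pard3, a scaffold of the cell polarity complex, had 17 at 38.9 per Mb, spread over 8 introns. Dlg2, a postsynaptic scaffold of 1973 kb, had 1.

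Ion channels and neurotransmitter receptors had 34 peaks at 3.46 per Mb (2.40 to 4.83), and 11 of the 18 genes had none, so that the median gene of the list stood at 0. Cacna1c, the pore subunit of an L-type calcium channel, held 24 of the 34. It had 303 replicate 1 and 334 replicate 2 peaks, 45.1 shared peaks per Mb, and 15 of its peaks in intron 3. Intron 3 made up 51.1% of the Cacna1c intron that met the rule and had 55.1 shared peaks per Mb. The list had 88.8 replicate 1 and 94.7 replicate 2 peaks per Mb, fewer than the 168.6 and 169.3 of the class.

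Cell adhesion and axon guidance genes, the largest list with 36 genes, had 100 peaks in 25 of them, at 3.61 per Mb (2.94 to 4.39). Slit3, a secreted ligand of Robo receptors, had 20 shared, 405 replicate 1 and 373 replicate 2 peaks, 17 of the 20 in intron 4. That intron made up 51.9% of the Slit3 intron that met the rule. Adgrl3 and the teneurin gene Tenm3 followed with 16 and 15. Robo2, a receptor of Slit ligands, had 6 and Robo1 had 1. Lsamp and Csmd1 were among the 11 with 0. The replicate lists were sparse here too, with 95.6 replicate 1 and 94.3 replicate 2 peaks per Mb.

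Receptor phosphatases and receptor kinases with their ligands had 55 peaks in 9 of 15 genes, at 4.45 per Mb (3.35 to 5.79). Ptprg, a receptor tyrosine phosphatase, had 17 at 34.3 per Mb, 10 of them in intron 2, while Ptprd had 4 in 2271 kb. Intron 2 made up 44.5% of the Ptprg intron that met the rule. The FGF homologous factors Fgf12, Fgf13 and Fgf14, which act inside cells and not as receptor ligands, are in this list with 1, 1 and 0. The 17 peaks of Fgfr2, an FGF receptor kinase, rest on an unusual annotation. Its annotated span of 2961 kb reaches far beyond the transcript with the longest coding sequence, 13 of its peaks lie outside that transcript, and 9 of the 17 also lie in Ctbp2. In no other gene of that strand lay 4 of the 17. Peaks outside the transcript with the longest coding sequence also occurred elsewhere, among them 9 of 13 in Celf2, all 4 in Ptprd and all 4 in Auts2.

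Heparan sulfate and matrix genes had 32 peaks in 7 of 9 genes at 4.75 per Mb (3.25 to 6.71), and the glypican gene Gpc6 held 22 of them, from 603 replicate 1 and 438 replicate 2 peaks. Of the RNA-binding protein genes over 500 kb, Rbms3 had 14 peaks, Celf2 had 13 and Rbfox1 had 0. Their list of 4 genes had 29 peaks at 7.76 per Mb (5.20 to 11.2), but it also holds Dpyd, an enzyme of pyrimidine breakdown, with 2. Genes of common fragile sites in mouse or human, a list that overlaps the others, had 188 peaks in 24 of 30 genes at 5.94 per Mb (5.12 to 6.86), near the class. The 73 genes in no list had 188 peaks at 5.07 per Mb. These lists were chosen with earlier results known, are described without a test, and differ in how many peaks either replicate had in them.

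**Figure D3:**
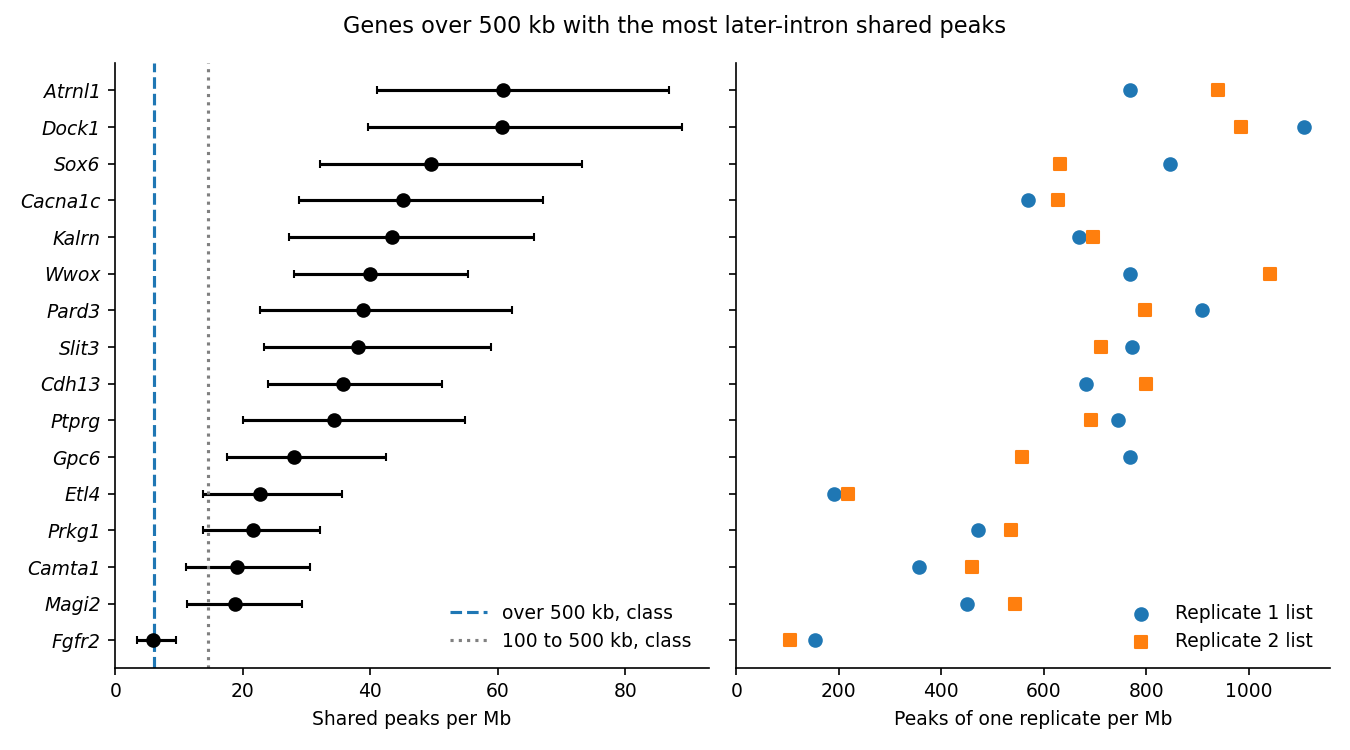
The 16 genes over 500 kb with most later-intron shared peaks, ordered by density. Left, shared peaks per Mb with exact Poisson 95% intervals as bars and the class densities as dashed (over 500 kb, 6.13) and dotted (100 to 500 kb, 14.5) lines. Right, peaks of each replicate per Mb. Atrnl1 and Dock1 are highest at 60.9 and 60.6, and Fgfr2 is lowest at 5.96.

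The plot of the genes with most peaks shows that 15 of the 16 were above the class density in each replicate list. Fgfr2 was below the class density, at 153.2 replicate 1 and 104.5 replicate 2 peaks per Mb, and Etl4 was the next lowest at 191.5 and 217.9. The 16 were picked by shared peaks, which need a peak in each library, so this direction is partly built in. The 10 longest genes had few peaks apart from Fgfr2. Besides it, they were Gm20388 with 2 peaks, Ptprd with 4, Dmd with 6, Cntnap2 with 3, Lsamp with 0, Lrp1b with 2, Macrod2 with 6, Dlg2 with 1 and Csmd1 with 0. Lrp1b, a receptor of the LDL receptor family, had 86 replicate 1 and 64 replicate 2 peaks in 1694 kb of later intron. Gm20388 is an annotation of 4435 kb in which nearly all the intron is intron 1, where 37 more shared peaks fell. Its later introns that met the rule make up only 43.7 kb, so its 2 peaks amount to 45.8 per Mb (5.54 to 165.3), an interval that includes the class density, with 732.1 replicate 1 and 1121 replicate 2 peaks per Mb.

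The introns themselves differed between the classes. The median peak of a gene over 500 kb lay in an intron of 114.6 kb and 20.7 kb from the nearest splice site, against 28.8 kb and 5.24 kb in genes of 100 to 500 kb. Over 10 kb from any splice site were 63.5% against 34.1%. Introns of 100 kb or more made up 52.7% and 14.8% of the intron counted within the transcript with the longest coding sequence. Intron outside that transcript was left out here and in the classes of intron length. Introns were therefore put in 4 classes of length, of which the longest has no upper limit and reaches lengths that genes under 500 kb cannot hold. In introns under 10 kb the densities were 9.18 per Mb in genes over 500 kb and 15.2 in genes of 100 to 500 kb. In introns of 10 to 30 kb they were 6.23 and 15.2. In introns of 30 to 100 kb they were 6.73 and 16.9. In introns of 100 kb or more they were 7.06 and 14.1. With intron length class as a covariate, chosen after seeing the data, the ratio was 0.459 (0.405 to 0.520, p = 3.1e-34, quasi-Poisson regression, n = 5915 strata of gene and intron class). Strata of 1 gene were taken as separate units in this fit, so its interval and p can be too small. With the same intron left out but no covariate, the regression over genes gave 0.450 (0.388 to 0.522). In all 4 classes of intron length the longer genes had the lower density.

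**Figure D4:**
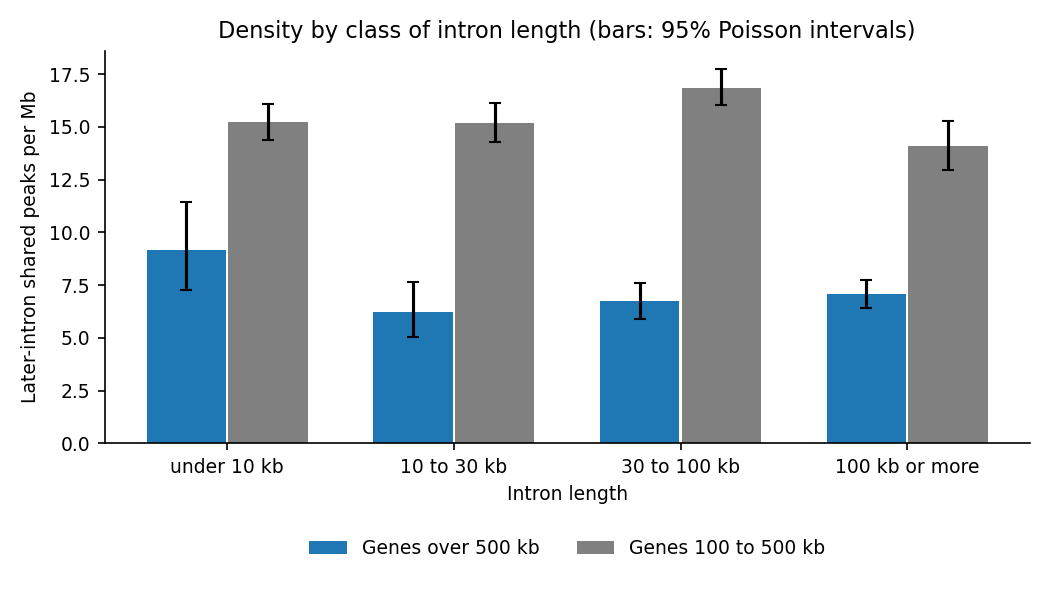
Later-intron shared peaks per Mb (vertical axis) in 4 classes of intron length (horizontal axis), for genes over 500 kb (blue) and genes of 100 to 500 kb (grey), with exact Poisson 95% intervals as bars. Intron outside the transcript with the longest coding sequence is left out. The blue bars stand between 6.23 and 9.18 and the grey bars between 14.1 and 16.9.

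Within genes over 500 kb, later introns had 6.13 and first introns 7.41 shared peaks per Mb. The ratio within genes, 0.722, had an interval of 0.510 to 1.02 and did not pass the threshold (p = 0.067, quasi-binomial regression), but with sandwich standard errors it did (0.578 to 0.902, p = 0.0043). In genes of 100 to 500 kb the ratio was 0.834 (0.776 to 0.896, p = 8.5e-07, n = 1363 genes). The difference between the classes was 0.866 as a ratio of ratios (0.699 to 1.07, p = 0.19, n = 1535 genes) and was not detectable. By position in the gene, 162 peaks lay in intron 2, 123 in intron 3, 361 in introns 4 to 9 and 238 in intron 10 or later, and 57 (6.06%) lay outside the transcript with the longest coding sequence.

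Within their introns the peaks leaned slightly to the 5′ side. The bases of each intron that met the rule were split evenly into a 5′ part and a 3′ part. Of the 884 peaks in a numbered intron, 480 lay in the 5′ part and 404 in the 3′ part. The ratio was 1.19 (1.02 to 1.38, p = 0.025, quasi-binomial regression, n = 143 genes). With sandwich standard errors p was 0.062, and without Wwox, where 25 lay in the 5′ part and 11 in the 3′ part, the ratio was 1.16 (p = 0.059, both by quasi-binomial regression). With each intron divided into 5 equal stretches from 5′ to 3′, the counts were 205, 194, 166, 184 and 135. Genes of 100 to 500 kb had 2321 and 2075, a ratio of 1.12 (p = 0.00094, n = 1193 genes), and the difference between the classes was not detectable (1.06, 0.903 to 1.25, p = 0.47).

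Most of the 941 peaks were weak and of the least width. The replicate 2 peak was 30 bp wide in 727 (77.3%), against 74.0% in genes of 100 to 500 kb. The fold is the peak caller's own value over its background, taken as the lower of both replicates, and it had a median of 1.92 in genes over 500 kb and 1.91 in genes of 100 to 500 kb. A fold under 2 was found in 77.8% and 73.1%, and a fold of at least 5 in 19 (2.02%) and 148 (3.24%). A −log10 p of at least 5 in both replicates was reached by 64 (6.80%) and 413 (9.04%). The mean log2 fold differed by −0.04 (−0.09 to 0.001, p = 0.057, linear model with standard errors clustered by gene, n = 1374 genes), a difference that did not pass the threshold. Many folds were exactly equal. The commonest fold in each replicate, 1.95 in replicate 1 and 1.92 in replicate 2, stood together at 163 peaks (17.3%), against 8.16% in genes of 100 to 500 kb. Across the 941 peaks the folds of both replicates ran together loosely (Spearman correlation 0.35 across peaks).

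**Figure D5:**
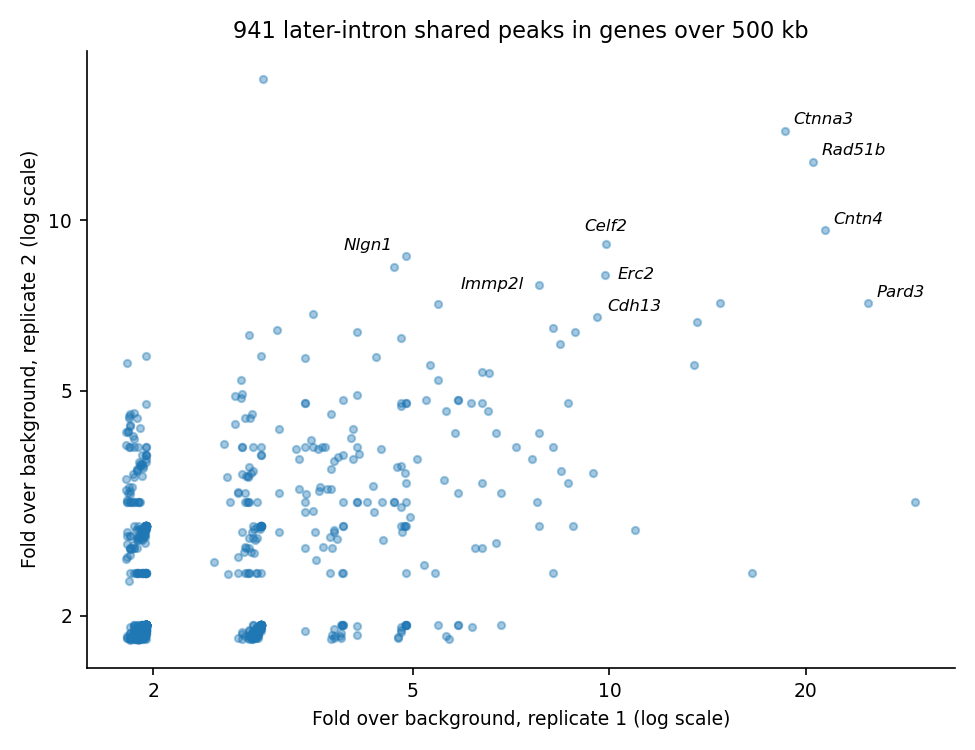
Fold over background in replicate 1 (horizontal axis, log scale) and replicate 2 (vertical axis, log scale) for each of the 941 peaks, with 9 of the 10 peaks of highest lower-of-replicates −log10 p labelled by gene. Most points crowd at the lower left near 1.95 and 1.92, and Ctnna3 lies at 18.5 and 14.4.

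The plot of folds shows a small group of strong single peaks apart from this crowd. The strongest lay in intron 9 of Ctnna3, at chr10:64393576-64393605, with folds of 18.5 in replicate 1 and 14.4 in replicate 2. Ctnna3 was otherwise sparse, with 63 replicate 1 and 74 replicate 2 peaks, and 4 of its 7 shared peaks had the commonest fold in both. In Rad51b, a gene of homologous recombination, the peak at chr12:79408543-79408620 had folds of 20.5 and 12.7. All 14 Rad51b peaks lay in intron 7, which made up 64.6% of the intron of that gene that met the rule. In Cntn4, a contactin of axons, the peak at chr6:105998931-105998960 had folds of 21.4 and 9.61, and the only other peak of that gene had 1.95 and 1.92. In Nlgn1, a neuroligin of the postsynaptic membrane, the pattern recurred, with folds of 4.88 and 8.65 at chr3:25484829-25484858 and 1.95 and 1.92 at the only other peak. Strong peaks thus also occurred in genes with few peaks.

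The remaining strong peaks lay in genes with more peaks. In Erc2, an active zone scaffold, the peak at chr14:28029288-28029323 had folds of 9.83 and 8.02 and lay 128 nt from an annotated splice site. In Immp2l, a mitochondrial inner membrane peptidase, the peak at chr12:41272773-41272834 had folds of 7.81 and 7.69 and lay 161860 nt from a splice site. Celf2, a regulator of splicing, had 9.86 and 9.09 at chr2:6948892-6948978. Pard3 had 24.9 and 7.14 at chr8:127498483-127498534, where the replicate 1 peak was far above the replicate 2 peak. Cdh13 had 9.58 and 6.75 at chr8:118949244-118949279.

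Peaks came in short runs at some sites. Another of the 941 lay within 1000 bp of 153 of them (16.3%), while 918 of 4571 (20.1%) had such a neighbour in genes of 100 to 500 kb. There were 92 neighbouring pairs in 37 genes, and chained together they formed 44 runs of 2, 9 of 3, 4 of 4, 2 of 5 and 2 of 6 peaks. In Rad51b, 6 peaks stood within 1200 bp (chr12:79407816-79409015), with replicate 1 folds from 2.60 to 20.5 and replicate 2 folds from 3.18 to 12.7. In Slit3, 6 stood within 2239 bp of intron 4 (chr11:35379531-35381769), with folds from 1.85 to 6.55 and from 1.83 to 7.11. In Cacna1c, 5 stood within 832 bp of intron 3 (chr6:118820865-118821696), and in Sox6 a run of 4 took up 633 bp of intron 7. The Celf2 run of 4, within 415 bp at chr2:7078653-7079067, includes both Celf2 sequences printed above and lies opposite the lincRNA gene Gm26565. Both printed Celf2 peaks had a replicate 1 fold of 6.38 and a replicate 1 −log10 p of 10.8, so they may pair with the same replicate 1 peak. Other neighbours had equal replicate 1 folds too, such as 8.64 in Dock1 and 8.21 in Lpp. Neighbours are separate replicate 2 peaks, and how many replicate 1 peaks they rest on was not counted.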

How the data were processed

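Per the submitters' processing notes, the authors used mm10, MACS2 2.1.1.20160309 and Novoalign 3.09.00; order, settings and the control of the peak caller are not given there. The peak names carry MACS2 and a p threshold of 0.005, and peaks were called per library. Each deposited peak carries the authors' score (10 times the −log10 p, rounded down). The deposited fold is a ratio over background, and the −log10 p is the authors' own as well. Each line of the deposited shared list pairs a replicate 2 peak with a replicate 1 peak that overlaps at least 50% of it, and gives the other value used, the bases of overlap.

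Repeated lines were removed, which left 387749 distinct replicate 1 and 344700 distinct replicate 2 peaks. Peaks were placed by midpoint on GENCODE M21, each base belonging to the longest same-strand protein-coding gene. Densities were compared by quasi-Poisson or quasi-binomial regression over genes, two-sided, with 0.05 as the threshold, and folds by a linear model with errors clustered by gene. The models were tested on simulated data, after which sandwich standard errors were added. The p-values measure spread between genes, or between strata of gene and intron class in the intron length fit, not between samples. Of 8 libraries in 4 groups, WT CLIP replicates 1 and 2 were used. The 8 library columns of a count table of shared peaks match no label and were not used, so Mettl3 KO was not compared.

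The members and gene lists were chosen with earlier results of these data known. Named were the 15 genes with most peaks (ties kept), the 10 densest with at least 3 peaks, the 10 longest, the 10 peaks of highest lower-of-replicates −log10 p, and neighbours within 1000 bp in those genes; other genes, runs and sequences were picked after their values were seen. One of the 10 peaks is not reported here. Alternatives changed the width, p, overlap, length and splice-site limits, the annotation, the units and the genes left out. Tools were statsmodels 0.14.6, scipy 1.17.1, pandas 2.3.3, numpy 2.4.6, matplotlib 3.10.9 and Python 3.11.15.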

Additional observations from a re-analysis of the deposited data

How the results depend on the processing

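Of 113 values under 21 alternatives, 97 kept their direction and their side of the threshold and none turned its direction. The density ratios of the shared, replicate 1 and replicate 2 lists held in each alternative run. The shared one was between 0.319 (−log10 p of at least 5) and 0.492 (length limit of 400 kb). Runs without replicate 1 or without replicate 2 took the list of the other replicate in place of the shared list, so they repeat its ratio (0.501 and 0.461). The share of replicate 2 peaks that are shared lost its call only at a −log10 p of at least 5 (0.775). The ratio of later to first introns passed the threshold in either replicate list alone (0.832 to 0.838), with no distance from splice sites (0.729), over 500 nt from them (0.722) and with sandwich standard errors (0.722). It also passed with peaks as units (0.813), which takes peaks of 1 gene as independent. It did not pass in the other 9 alternatives, among them intron 2 or later required (0.829) and a −log10 p of at least 5 (0.932). The lean to the 5′ side of the intron lost its call at a width of at most 50 bp (1.13), with 50% of each peak covered (1.14), without Wwox (1.16) and with sandwich standard errors (1.19). In one replicate alone it was 1.07 to 1.18. The log2 fold difference passed the threshold with no width limit (−0.092), no distance from splice sites (−0.046), comprehensive exons excluded (−0.049), intron 2 or later required (−0.050) and without Fgfr2 (−0.047). The causes were not tested.

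No paired analysis was possible because no groups of samples were compared. All tests set genes, or regions of the same gene, against each other within lists of the same libraries. Whether input was the peak caller's control is not known. The intron length covariate, the sandwich errors and the fit without Fgfr2 were chosen after seeing the data. Regression intervals rest on genes, except in the intron length fit, where they rest on strata of gene and intron class. Peaks of 1 gene share its transcript.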

Other observations

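Some of the 941 peaks belong to more than 1 gene. A second protein-coding or other gene of the same strand covered 27 of them. These were led by 9 in Fgfr2 and Ctbp2, 5 in Iqschfp and Schip1, 4 in Foxp1 and Gm20696, and 2 each in Camta1 and Per3, in Fgfr2 and Eef1akmt2, and in Gm20388 and Galnt2. In genes of 100 to 500 kb, 89 of 4571 had such a second gene. An interval listed on both strands accounted for 7 of the 941 and 42 of the 4571. None of the 941 lay on an annotated miRNA hairpin (0).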
